A study of Mus musculus with 12 samples.

Results

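Ccl3 and Ccl4 encode the CC chemokines also known as macrophage inflammatory protein 1 alpha and 1 beta. They were picked out by gene symbol and are 2 of the 31053 genes counted, in sorted myeloid cells from the brains of 12 mice. Both are small secreted proteins that attract immune cells. Ccr1 is a receptor of Ccl3. In macrophages and microglia, the resident macrophages of the brain, the genes belong to the rapid response to injury or microbial products: signalling to NF-kappa-B and AP-1 factors such as Fos and Jun starts their transcription within a short time, and AU-rich elements in the 3' UTR make the mRNAs short-lived. Both genes were among those that the study used to describe activation of microglia outside the body and also a small population of chemokine-expressing microglia.

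All mice were male C57BL/6J at postnatal day 90, and each library held the live cells positive for CD45 and CD11b from the whole brain of 1 perfused animal with the meninges removed. In DNC-NONE (n = 3) the tissue was dissociated mechanically in a cold Dounce homogenizer and in ENZ-NONE (n = 3) by warm enzymatic digestion, both without inhibitors. DNC-INHIB (n = 3) and ENZ-INHIB (n = 3) used the same 2 methods with the transcription inhibitors actinomycin D and triptolide from perfusion onwards and the translation inhibitor anisomycin from dissection onwards. By the labels, ENZ-INHIB replicate 1, ENZ-NONE replicates 4 and 5, DNC-INHIB replicate 4 and DNC-NONE replicates 1 and 2 made up batch 1, and the other 6 libraries batch 2. Values of the other 3 groups beside ENZ-NONE are given below with DNC-NONE first, DNC-INHIB next and ENZ-INHIB last. Whole-brain preparations do not show where in the brain a cell lay, and the sort kept only cells that survived dissociation.

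The libraries counted unique molecular identifiers (UMIs), 1 per captured transcript, at the 3' ends of mRNAs in single droplets. Of 28426 deposited barcodes, 18825 cells were kept, with 853 to 2185 cells and 1059783 to 3233159 UMIs per library and medians of 1153 to 1572 UMIs per cell. Of the kept cells, 17960 fell into 7 microglia-like clusters in which all 10 microglial markers were detected. The other cells were 341 interferon-responsive microglia-like, 299 border macrophage-like and 31 proliferating-like cells and 194 cells in 2 unnamed clusters. ENZ-NONE replicate 6 stood apart from replicates 4 and 5: a microglia-like cluster of 1037 cells led by Fos, Dusp1 and Klf2 held 42.4% of its cells, against 1.40% and 2.68% of theirs. DNC-NONE replicate 1 also stood apart from its group, with 73 cells holding a Fos UMI against 1 and 4 in replicates 2 and 3. It had 156 cells (8.48%) in the cluster led by Fos, against 2 cells in each of replicates 2 and 3. That share was above those of ENZ-NONE replicates 4 and 5. The libraries shared 236 barcodes, found in 472 cells.

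Ccl3 (ENSMUSG00000000982) lies on the minus strand at chr11:83647844-83649355 and Ccl4 (ENSMUSG00000018930) on the plus strand at chr11:83662584-83664683 of GRCm38. The genes have 3 exons each, no annotated gene overlaps either, and 13228 bases separate them. Their coding sequences, 279 bases each, were identical at 68.4% of 285 aligned positions, and the longest exact run shared by the transcripts was 9 bases, so reads could be told apart. Each 3' UTR (409 bases in Ccl3, 302 in Ccl4) holds 1 copy of TATTTAT, the DNA form of the heptamer bound by the mRNA decay factor Zfp36, at base 233 after the stop codon in Ccl3 and base 172 in Ccl4. The 30-base windows below, read from GRCm38 with GENCODE transcripts and written 5′ to 3′ on the strand of the gene, are shown because Zfp36 was among the genes most alike to both chemokines. They lie at chr11:83648002-83648031 for Ccl3 and chr11:83664542-83664571 for Ccl4, and capitals mark the heptamer.
Ccl3: gtatttgtgacTATTTATtctgaaagactt
Ccl4: attatttctatTATTTATgttttagttata
The shorter motif ATTTA occurred 5 times in the 3' UTR of Ccl3 and 2 times in that of Ccl4. Within the first 302 bases after the stop codon, TATTTAT occurred in 1126 of 16269 genes (6.92%). The Ccl3 promoter, from 250 bases before to 50 after the transcription start, held 0 matches to the AP-1 motif searched and 0 to the NF-kappa-B motif. Of 32544 promoters, 7.79% and 8.49% held them. The promoter of Ccl4 was not examined. Such matches, present or absent, describe the sequence alone.

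The 2 chemokines were low in 3 of the 4 preparations and high in ENZ-NONE. ENZ-NONE replicates 4, 5 and 6 held 451, 359 and 1510 Ccl3 UMIs, where the DNC-NONE libraries held 110, 29 and 73, the DNC-INHIB libraries 47, 74 and 80 and the ENZ-INHIB libraries 58, 26 and 49, each in replicate order. They held 674, 365 and 2889 Ccl4 UMIs, where the DNC-NONE libraries held 178, 29 and 82, the DNC-INHIB libraries 135, 216 and 123 and the ENZ-INHIB libraries 51, 113 and 82. Every ENZ-NONE library therefore lay above the other 9 for both genes, and replicate 6 lay well above replicates 4 and 5.

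Scaled to depth as UMIs in 1000000 UMIs of the library (CPM), Ccl3 was at 207, 234 and 553 CPM in ENZ-NONE, a mean of 331 ± 193 (SD, n = 3). It was at 44.0, 27.4 and 40.5 CPM with the cold method (DNC-NONE, mean 37.3 ± 8.78), at 22.4, 28.1 and 24.7 CPM with inhibitors added to it (DNC-INHIB, 25.1 ± 2.89) and at 31.2, 9.80 and 19.1 CPM after inhibited digestion (ENZ-INHIB, 20.05 ± 10.8). Ccl4 was at 309, 238 and 1058 CPM in ENZ-NONE, a mean of 535 ± 454. Its other values were 71.2, 27.4 and 45.5 CPM (mean 48.0 ± 22.0), 64.2, 82.1 and 38.0 CPM (61.5 ± 22.2) and 27.5, 42.6 and 32.0 CPM (34 ± 7.76), in the same order of groups. The order of the 3 low groups differed between the genes, and their libraries overlapped except that for Ccl3 DNC-NONE replicates 1 and 3 lay above all libraries of the other 2 groups. In such sums, more cells that make a transcript and more transcript per cell cannot be told apart.

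**Figure D1:**
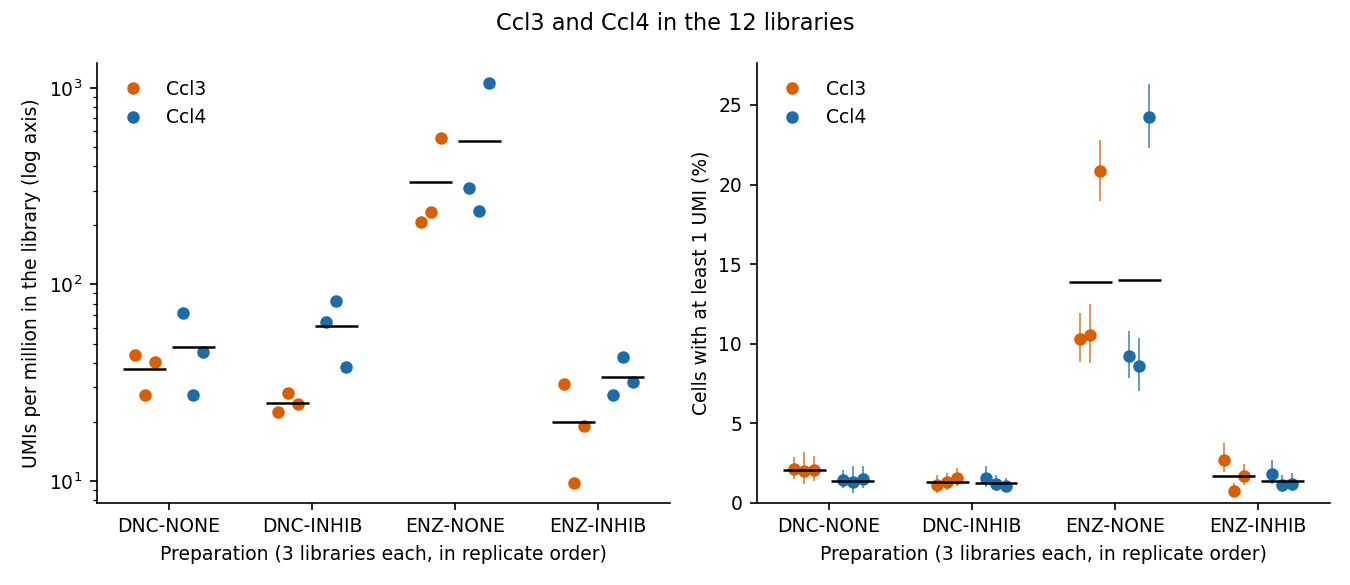
Level of Ccl3 and Ccl4 in CPM and share of kept cells with a UMI of each gene, for the 12 libraries by preparation; each point is 1 library, black lines are the means of 3 libraries, and vertical bars on the shares are exact 95% intervals. All ENZ-NONE points lie above those of the other 9 libraries, and ENZ-NONE replicate 6 is the highest in each panel (553 CPM for Ccl3, 1058 CPM for Ccl4).

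The difference was tested on summed counts with edgeR's quasi-likelihood test across 9882 genes, with a call at an adjusted p below 0.05 and a log2 fold change beyond 0.58 in size. Ccl3 was called higher in ENZ-NONE than in DNC-NONE (log2 fold change 3.16, SE 0.49, adjusted p 0.0377), where 0.486% of genes were called. It was also called higher than in DNC-INHIB (3.78, SE 0.50, adjusted p 0.0103; 0.739% of genes called) and than in ENZ-INHIB (4.17, SE 0.52, adjusted p 0.0186; 0.293% of genes called). These 3 comparisons share the ENZ-NONE libraries. The calls against DNC-INHIB and ENZ-INHIB were each lost when any 1 library of that group was left out (edgeR adjusted p 0.0647 to 0.0744 and 0.0656 to 0.152), and the call against DNC-INHIB also when these 2 groups were fitted alone (edgeR adjusted p 0.146).

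Ccl4 differed by as much but was not called in any of the 3 by edgeR. It was higher by 3.47 on the log2 scale than in DNC-NONE (SE 0.68, edgeR adjusted p 0.107). Against DNC-INHIB the value was 3.21 (SE 0.65, adjusted p 0.0829) and against ENZ-INHIB 4.02 (SE 0.69, adjusted p 0.0861). DESeq2 called Ccl4 in all 3, with adjusted p-values of 1.31e-05, 0.00011 and 9.26e-08. Without ENZ-NONE replicate 6, edgeR called Ccl4 against DNC-NONE (2.43, adjusted p 0.0468) and ENZ-INHIB (3.00, adjusted p 0.0334), although the fold was smaller. The Ccl3 call against DNC-NONE was lost in microglia-like cells alone (3.09, adjusted p 0.0587) and when any 1 library of the other 3 groups was left out (adjusted p 0.0527 to 0.164).

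No difference was called for either gene between the other preparations in the main fit. A fit with the replicate number as a block, given below, called Ccl3 lower in ENZ-INHIB than in DNC-NONE. From DNC-INHIB to DNC-NONE the log2 fold change was 0.62 for Ccl3 and -0.25 for Ccl4; edgeR called 0 of 9882 genes there (436 at an unadjusted p below 0.05; 1 called by DESeq2), and the value for Ccl4 turned positive with batch as a covariate (0.06). ENZ-INHIB minus DNC-INHIB was -0.39 for Ccl3 (edgeR adjusted p 0.935) and -0.81 for Ccl4 (0.833), with 0.202% of genes called. ENZ-INHIB minus DNC-NONE was -1.005 for Ccl3 (edgeR adjusted p 0.650) and -0.56 for Ccl4 (0.883), with 0.182% of genes called.

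The share of cells that held a UMI showed how widely the transcripts were spread. Ccl3 was found in 10.3%, 10.6% and 20.8% of cells in ENZ-NONE replicates 4, 5 and 6 (95% exact Clopper-Pearson intervals 8.86 to 11.9, 8.81 to 12.5 and 18.9 to 22.8). Among the cold libraries it was found in 2.12%, 1.99% and 2.08% of DNC-NONE cells and 1.10%, 1.28% and 1.56% of DNC-INHIB cells, and ENZ-INHIB had 2.72%, 0.717% and 1.70%. Ccl4 was found in 9.24%, 8.59% and 24.3% in ENZ-NONE (7.85 to 10.8, 7.01 to 10.4 and 22.3 to 26.3), and in 1.05% to 1.84% of cells in each of the other 9 libraries. Thus more cells held Ccl3 than Ccl4 in ENZ-NONE replicates 4 and 5 (162 against 145 and 118 against 96). In replicate 6 more held Ccl4 (424 against 364), and these differences were not tested.

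The mean share in ENZ-NONE exceeded that of the other 9 libraries by 12.2 percentage points for Ccl3 (13.9% ± 6.00 against 1.70% ± 0.609, SD) and by 12.7 points for Ccl4 (14.0% ± 8.87 against 1.352% ± 0.250). By exact two-sided permutation of the libraries, p was 0.00909 for each gene, the smallest of 220 assignments, and 0.0222 when libraries were permuted within batch. In batch 1 the mean share with Ccl3 was 10.4% in ENZ-NONE and 2.06%, 1.10% and 2.72% in the other groups, and in batch 2 it was 20.8% against 2.08%, 1.42% and 1.21%. For Ccl4 it was 8.91% against 1.352%, 1.56% and 1.84% in batch 1 and 24.3% against 1.504%, 1.12% and 1.17% in batch 2, and several of these values rest on 1 library.

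The difference remained at equal depth and under a stricter count. With every cell thinned to 1000 UMIs, the shares were 11.7% against 1.33% for Ccl3 and 11.9% against 1.09% for Ccl4. Counting only cells with at least 2 UMIs of the gene, they were 7.97% against 0.482% and 8.28% against 0.541%. In microglia-like cells alone they were 13.5% against 1.69% and 13.7% against 1.32%. Each of these had the same exact permutation p of 0.00909. Leaving out ENZ-NONE replicate 6 lowered the difference to 8.74 points for Ccl3 and 7.56 points for Ccl4.

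Per positive cell, ENZ-NONE overlapped the other preparations for both genes. Cells with a Ccl3 UMI held 2.78, 3.04 and 4.15 Ccl3 UMIs on average in ENZ-NONE, against 1.57 to 2.96 in the other libraries, so that replicate 4 lay inside their range. Cells with a Ccl4 UMI held 4.65, 3.80 and 6.81 Ccl4 UMIs in ENZ-NONE, inside the range of 2.04 to 9.39 of the other 9 libraries. A difference between the genes was not tested.

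A few cells carried most chemokine transcripts in the 9 low libraries. Their 10 highest cells held 53.4% to 92.3% of the library's Ccl3 UMIs and 70.6% to 96.6% of its Ccl4 UMIs, against 17.2% to 31.5% and 18.7% to 49.6% in ENZ-NONE. These shares also move with the number of positive cells, which was 12 to 39 for Ccl3 and 11 to 26 for Ccl4 in a low library and 118 to 364 and 96 to 424 in ENZ-NONE. Single cells reached 5 to 37 Ccl3 UMIs and 8 to 87 Ccl4 UMIs in the low libraries and 16 to 39 and 61 to 103 in ENZ-NONE. Some cells of the DNC-NONE and DNC-INHIB libraries thus reached the range of the ENZ-NONE maxima. In ENZ-INHIB no cell held more than 13 Ccl3 or 48 Ccl4 UMIs. Cells with at least 10 UMIs of the 2 genes together numbered 2 to 6 in each low library, or 0.119% to 0.430% of cells. In ENZ-NONE they numbered 27, 13 and 119, or 1.72%, 1.16% and 6.81% of cells.

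Free RNA in droplets can give a UMI to a cell that does not express a gene, and no cell type in this sort is known to lack these chemokines. The lowest shares give a guide. In the 9 low libraries, 0 of 75 cells in the border macrophage-like cluster led by Pf4 and Mrc1 (median 1387 UMIs per cell) held a UMI of either gene, which allows a share of up to 4% for counting error, taking 3 counts as the limit. The unnamed cluster led by Cd209a had 0 of 49 cells (median 2479 UMIs), which allows up to 6.12%. Among the microglia-like clusters, the one led by Ddit4 (1705 cells in these libraries, median 1193 UMIs) was lowest for Ccl3, with 0.645%, and had 0.528% with Ccl4. The one led by Zfp691 (4046 cells, median 1367 UMIs) was lowest for Ccl4, with 0.420%, and had 0.766% with Ccl3. In ENZ-NONE those 4 clusters, in this order, had 37.5%, 18.2%, 7.58% and 9.87% of cells with Ccl3 and 37.5%, 36.4%, 6.87% and 8.08% with Ccl4. Of cells with Ccl3, 42.0% to 43.2% held a single UMI in ENZ-NONE and 52.9% to 83.8% in the other libraries. For Ccl4 the ranges overlapped, at 38.2% to 46.9% in ENZ-NONE and 45.8% to 73.7% in the other libraries. How much of the single-UMI share was free RNA was not tested.

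Ccl3 and Ccl4 were found together in the same cells more often than their separate shares would give. Cells with both numbered 68, 36 and 178 in ENZ-NONE (4.33%, 3.22% and 10.2% of cells), where independent detection would give 14.96, 10.1 and 88.3. They numbered 4 to 10 in each of the other libraries (0.239% to 0.649%). The mean share of cells with both was 5.91% ± 3.74 in ENZ-NONE and 0.466% ± 0.138 in the other 9 (SD; exact permutation p 0.00909, the smallest possible).

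The excess of co-detection over independence was smaller where the genes were widespread. Observed over expected was 4.54, 3.55 and 2.02 in ENZ-NONE and 11.8 to 37.8 in the other libraries. After thinning to 1000 UMIs it was 5.12, 3.60 and 2.27 against 14.1 to 46.4, so the groups did not overlap on either scale. This ratio has a ceiling that falls as the shares rise, and the share of Ccl4-positive cells that also held Ccl3 differed less: 46.9%, 37.5% and 42.0% in ENZ-NONE against 21.1% to 43.5%. The share of Ccl3-positive cells that held Ccl4 was 42.0%, 30.5% and 48.9% against 18.5% to 58.8%. Among cells with at least 10 UMIs of the pair, every cell of the 9 low libraries held both genes, and in ENZ-NONE 96.3%, 84.6% and 78.2% did.

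**Figure D2:**
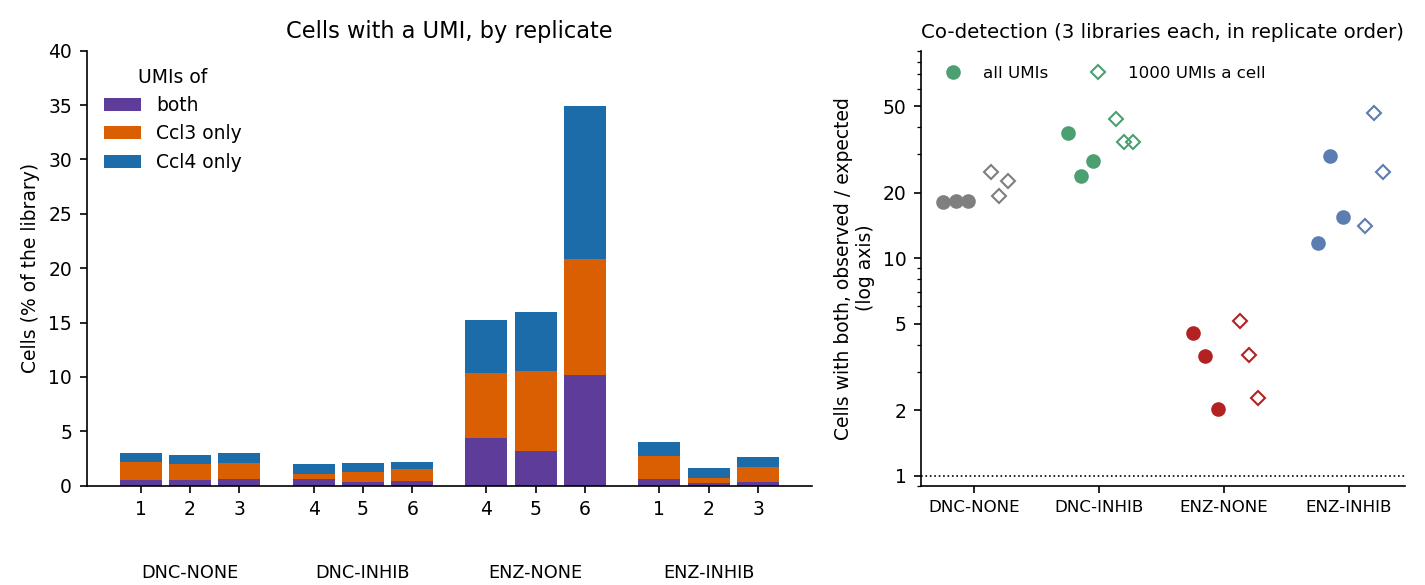
Left, share of each library's kept cells with UMIs of Ccl3, Ccl4 or both; right, cells with both genes divided by the number that independent detection gives, on a log axis, for all UMIs and after thinning to 1000 UMIs per cell. ENZ-NONE has the most cells with both (4.33%, 3.22% and 10.2%) and the smallest ratios (4.54, 3.55 and 2.02).

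The balance of the pair varied between libraries with no order by preparation. The ratio of Ccl4 to Ccl3 UMIs ran from 0.879 to 4.35 over the 12 libraries and was 1.49, 1.02 and 1.91 in ENZ-NONE. Both extremes came from ENZ-INHIB libraries, where 26 to 58 Ccl3 UMIs set the denominator.

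Fos, the AP-1 subunit and classic immediate early gene, divided the cells of the uninhibited preparations. Cells with a Fos UMI numbered 235, 187 and 742 in ENZ-NONE, 73 in DNC-NONE replicate 1 and 1 to 8 in each of the other 8 libraries. Shares in Fos-positive cells are given only for the 4 libraries with at least 10 of them.

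Among Fos-positive cells the chemokines were more frequent in each of these 4 libraries. Ccl3 was found in 20.4%, 18.2% and 30.1% of Fos-positive cells in ENZ-NONE replicates 4, 5 and 6, against 8.54%, 9.02% and 14.0% of Fos-negative cells. Ccl4 was found in 18.3%, 19.3% and 35.6% against 7.64%, 6.44% and 15.9%. In DNC-NONE replicate 1 the shares were 4.11% against 2.04% for Ccl3 and 2.74% against 1.36% for Ccl4, a difference of a few cells. Over the 4 libraries the mean difference was 9.79 ± 5.87 points for Ccl3 and 11.1 ± 7.55 points for Ccl4 (SD), positive in 4 of 4. The exact sign-flip permutation p was 0.125 for each, the smallest that 4 libraries can give. After thinning the differences were 8.64 and 10.2 points.

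Fos-positive cells held a different part of the chemokine transcripts in each ENZ-NONE library. They held 31.9%, 27.3% and 72.0% of the Ccl3 UMIs and 34.7%, 34% and 78.1% of the Ccl4 UMIs in replicates 4, 5 and 6. In replicates 4 and 5 most chemokine transcripts therefore lay in cells with no Fos UMI. Within Fos-negative cells alone, ENZ-NONE still exceeded the other 9 libraries, at 10.5% ± 3.03 against 1.67% ± 0.613 for Ccl3 and 10.0% ± 5.15 against 1.32% ± 0.257 for Ccl4 (SD; exact permutation p 0.00909 each, the smallest possible). A cell with no Fos UMI at this depth may still have carried Fos mRNA.

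Lpl, a lipase, and Cst7, a cystatin, mark the disease-associated-like state of microglia. Microglia-like cells with a UMI of either numbered 20 to 54 per library and were 1.90% to 3.91% of microglia-like cells. Ccl4 was found in 17.6%, 27.3% and 45.7% of these cells in ENZ-NONE against 8.99%, 7.54% and 23.2% of the rest. In the 9 other libraries it was found in 5.56% to 12.1% of them against 0.934% to 1.51% of the rest, so the Lpl- or Cst7-positive cells were higher in every library.

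Ccl3 followed with more scatter. It was found in 17.6%, 33.3% and 40% of Lpl- or Cst7-positive cells in ENZ-NONE and 8.57%, 0% and 11.1% after inhibited digestion. With the cold method it was found in 15.2%, 5% and 15.4% without inhibitors and 11.4%, 5.88% and 5.77% with them. The 0% was of 33 cells in ENZ-INHIB replicate 2 (exact interval up to 10.6%). The rest of the microglia-like cells had 0.635% to 2.62% in the 9 libraries and 9.66%, 9.28% and 20.2% in ENZ-NONE.

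Over all 12 libraries the mean difference was 9.73 ± 7.14 points for Ccl3 (higher in 11 of 12; exact sign-flip permutation p 0.000977) and 9.81 ± 5.70 points for Ccl4 (higher in 12 of 12; p 0.000488 by the same exact test, the smallest possible). For cells with both it was 6.67 ± 6.32 points (higher in 11 of 12; exact permutation p 0.000977). After thinning, which removes the greater depth of these cells, the differences were 8.53, 8.83 and 5.96 points. Within Lpl- or Cst7-positive cells, ENZ-NONE was again higher than the other 9 libraries, at 30.3% against 8.70% for Ccl3 and 30.2% against 8.56% for Ccl4 (exact permutation p 0.00909 each).

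**Figure D3:**
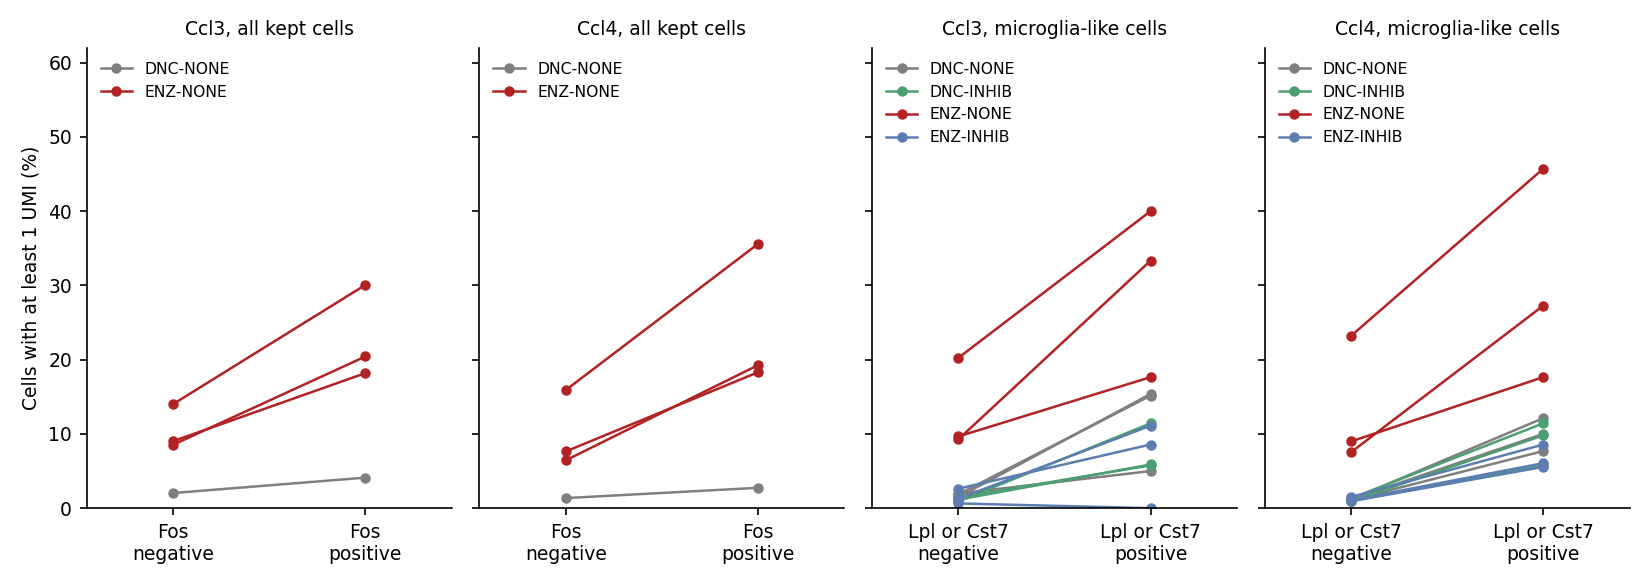
Share of cells with a Ccl3 or Ccl4 UMI in Fos-negative and Fos-positive kept cells, and in Lpl- or Cst7-negative and positive microglia-like cells; each line joins the 2 classes of 1 library, coloured by preparation. Lines rise in all 4 libraries of the Fos panels and in 12 of 12 libraries for Ccl4 in the Lpl or Cst7 panel.

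In ENZ-NONE, Fos was found in 26.5% of the 102 Lpl- or Cst7-positive microglia-like cells and in 25.0% of the 4146 negative ones (5.88%, 27.3% and 45.7% against 14.1%, 15.6% and 41.1% in replicates 4, 5 and 6). The 27 cells positive for Fos and for Lpl or Cst7 held the chemokines most often: 51.9% held Ccl3 and 44.4% Ccl4. The 75 cells positive only for Lpl or Cst7 had 22.7% and 25.3%, the 1037 positive only for Fos had 25.1% and 28.9%, and the 3109 with neither had 9.91% and 9.26%. These cells come from 3 libraries and replicate 6 holds most of the Fos-positive ones, so the shares are a description. Cells with neither had 1.17% to 1.71% with Ccl3 and 1.02% to 1.14% with Ccl4 in the other 3 groups.

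Clustering without Ccl3, Ccl4, Lpl, Cst7, Fos and the study's activation genes placed many of the chemokine UMIs in 2 microglia-like clusters. Together these held 34.5% to 91.5% of a library's Ccl3 and 62.7% to 94.9% of its Ccl4 UMIs in the 9 low libraries. In ENZ-NONE replicates 4, 5 and 6 they held 23.3%, 23.7% and 73.1% of Ccl3 and 36.4%, 47.7% and 78.8% of Ccl4 UMIs, so that most lay in other cells in replicates 4 and 5. In the 9 low libraries, the cluster of 433 cells led by Spp1 and Lpl, genes of the disease-associated-like state, held 340 cells and 52.9% of all Ccl3 and 70.2% of all Ccl4 UMIs. In ENZ-NONE it held 93 cells and 11.3% and 15.02% of them. The share of its cells with Ccl4 was 48.5%, 46.4% and 62.5% in ENZ-NONE and 30%, 23.3% and 16.3% in DNC-NONE. With inhibitors it was 34.9%, 34.3% and 15% after the Dounce and 28.0%, 19.2% and 18.2% after digestion. It was thus present and chemokine-rich in all 4 preparations, and only 15.2% to 46.4% of its cells in a library held an Lpl or Cst7 UMI. Spp1 leads it by fold, but few microglia-like cells as a whole held that gene. Over all microglia-like cells of ENZ-NONE, it was found in 10 of 958 with a Ccl3 or Ccl4 UMI and 2 of 3290 without. In the inhibitor libraries it was found in 4 of 227 and 27 of 9635. These counts are not of the cluster alone. Plaur, Cd83 and Csf1 were also among the leading genes of the cluster.

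The cluster led by Fos, Dusp1 and Klf2 held 44.5% of Ccl3 and 53.6% of Ccl4 UMIs pooled over ENZ-NONE, but 742 of its 794 ENZ-NONE cells came from replicate 6. It held 63.8% and 68.8% of the UMIs of that library. In replicates 4 and 5 it held 10.2% and 6.41% of Ccl3 and 7.86% and 17.5% of Ccl4, less than the Spp1 and Lpl cluster (13.1% and 17.3% of Ccl3, 28.5% and 30.1% of Ccl4). Its cells had 29.1% with Ccl3 and 33.0% with Ccl4 in ENZ-NONE and 7.82% and 6.58% in the other 9 libraries. Of its 243 cells in those 9 libraries, 156 came from DNC-NONE replicate 1, where 6.41% and 3.21% held the genes. In ENZ-NONE replicates 4 and 5 the cluster held only 22 and 30 cells. The remaining microglia-like clusters were also raised, at 7.58% to 12.5% with Ccl3 and 6.87% to 11.8% with Ccl4 in ENZ-NONE, against 0.645% to 1.88% and 0.420% to 0.905%.

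**Figure D4:**
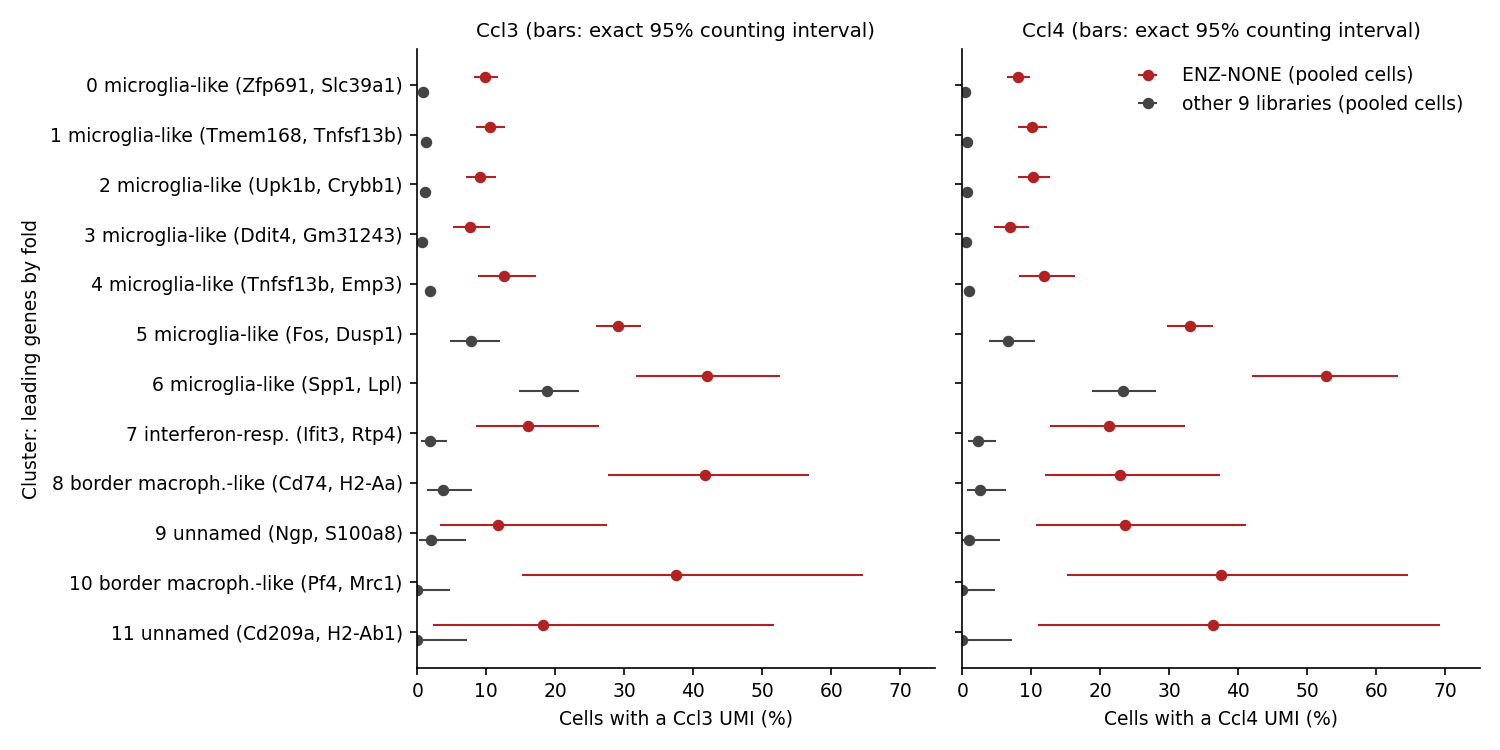
Share of cells with a Ccl3 or Ccl4 UMI in each cluster, pooled over the 3 ENZ-NONE libraries and over the other 9, with exact 95% intervals that cover counting error only. In every cluster shown the ENZ-NONE share is the higher, and the Spp1 and Lpl cluster is highest among the microglia-like clusters in the other 9 libraries (18.8% and 23.2%).

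Cells other than microglia held the chemokines too. Cells named border macrophage-like numbered 64 in ENZ-NONE and 235 in the other libraries. Of these, 48 and 160 lay in a cluster led by Cd74 and the MHC class II genes H2-Aa and H2-Eb1, with Ccr2 among its leading genes. The unnamed cluster led by Cd209a shares those 3 leading genes. The rest lay in the cluster led by Pf4 and Mrc1. Ccl3 was found in 40%, 30.8% and 45.2% of the whole class in ENZ-NONE replicates 4, 5 and 6, which held 20, 13 and 31 such cells, and Ccl4 in 10.0%, 15.4% and 41.9%. The mean over ENZ-NONE libraries was 38.6% against 2.29% in the other 9 for Ccl3 (exact permutation p 0.00909) and 22.4% against 2.32% for Ccl4 (exact permutation p 0.0182). Cells with both averaged 11.8% over the ENZ-NONE libraries, and 0 of the 235 other cells held both. Interferon-responsive microglia-like cells had 16.0% with Ccl3 and 21.3% with Ccl4 in ENZ-NONE against 1.88% and 2.26%. In the unnamed cluster led by Ngp and S100a8, genes of neutrophils, 11.8% and 23.5% of 34 cells in ENZ-NONE held them, against 2.00% and 1.00% of 100 cells.

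Of 7 receptor genes listed, 4 were tested and 0 were called in any of the 3 comparisons with ENZ-NONE, where the list had median log2 fold changes of 0.07, 0.29 and 0.24. The median of all genes was 0.00, 0.01 and -0.00, and 0.486%, 0.739% and 0.293% of all genes were called. At such shares, 0 calls in a list this short does not set it apart from other genes. Ccr1 was low, at 28.4 ± 14.97 CPM in ENZ-NONE and 30.1 ± 9.33, 21.0 ± 5.84 and 16.8 ± 12.5 CPM in the other groups (SD, n = 3 each).

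Of 15 other chemokine ligands, 10 were tested and 0 were called in these comparisons (medians -0.00, 0.01 and 0.37). With 0.486%, 0.739% and 0.293% of all genes called there, this count does not set the ligands apart. The monocyte attractant Ccl2 was at 40.9, 20.8 and 167 CPM in ENZ-NONE and 3.51 to 58.0 CPM in the other libraries, which overlap. Ccl12, another monocyte attractant, was at 98.3, 106 and 1249 CPM in ENZ-NONE, so that replicate 6 alone stood out from the 86.9 to 395 CPM of the other libraries. Of 7 cytokines of the same response, 5 were tested and 0 called, which at the same shares does not set that list apart either. Il1b, an inflammatory cytokine, was at 7.81, 7.16 and 58.2 CPM in ENZ-NONE and 1.90 to 6.00 CPM elsewhere (edgeR adjusted p 0.495, 0.275 and 0.876). Tnf was too low to be tested, at 1.84, 2.61 and 9.52 CPM in ENZ-NONE and 0 to 3.02 CPM elsewhere. None of the 7 lists described here held a called member in the 3 comparisons without ENZ-NONE, where 0%, 0.202% and 0.182% of all genes were called.

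The factors that act on such genes moved in part. Of 21 activating factors and feedback inhibitors, all tested, 4 were called higher in ENZ-NONE against DNC-NONE (Nfkbid, Egr2, Jund and Egr1). Against DNC-INHIB and against ENZ-INHIB 8 were called higher, adding Jun, Junb, Fos and Fosb. The list medians were 1.15, 2.10 and 1.57, and the shares of all genes called higher were 0.263%, 0.354% and 0.293%. The AP-1 subunit Jund rose by log2 fold changes of 2.45, 2.84 and 2.80 (edgeR adjusted p 0.00479, 0.00145 and 0.0032). The zinc-finger factor Egr1 rose by 3.93, 5.48 and 5.65 (edgeR adjusted p 0.0484, 0.00964 and 0.022). Nfkbid, an inhibitor-like regulator of NF-kappa-B, rose by 1.90, 2.10 and 1.57 (edgeR adjusted p 0.00536, 0.000861 and 0.0186).

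Fos was at 411, 392 and 1753 CPM in ENZ-NONE, 37.2 CPM in DNC-NONE replicate 1 and 0.390 to 4.15 CPM in the other 8 libraries. Its log2 fold change of 5.71 against DNC-NONE was not called (edgeR adjusted p 0.0595). The inhibitor of NF-kappa-B Nfkbia was not called, with group means of 186 CPM in ENZ-NONE and 134, 163 and 131 CPM in the others. The 3 NF-kappa-B subunits Nfkb1, Rel and Rela were near level, for example Nfkb1 at 141 CPM in ENZ-NONE and 143, 139 and 145 CPM in the others. Of 3 mRNA decay factors, Zfp36 was called higher against DNC-INHIB (3.25, edgeR adjusted p 0.0207) and ENZ-INHIB (3.40, adjusted p 0.0339) and was at 2.83 (adjusted p 0.0587) against DNC-NONE. The lists of disease-associated-like genes (23 of 28 tested) and homeostatic genes (12 of 12 tested) held 0 called members. With 0.293% to 0.739% of all genes called against ENZ-NONE, this does not set either list apart. Lpl was at group means of 9.31 CPM in ENZ-NONE and 20.8, 14.0 and 15.1 CPM in the others, and Cst7 at 16.0 against 17.8, 14.5 and 15.01 CPM, with no call for either in any comparison.

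Over the 12 libraries, the genes whose log2(CPM + 1) was most alike to that of Ccl3 were Jund (Pearson r 0.966), Junb (0.966), Zfp36 (0.965), Jun (0.956) and Fosb (0.953), of 9881 genes. Those most alike to Ccl4 were Klf2 (0.961), Zfp36 (0.957), Btg2 (0.955), Klf6 (0.945) and Hsp90aa1 (0.944). Ccl3 and Ccl4 had an r of 0.917 with each other. The points share their libraries and the 3 ENZ-NONE libraries set most of the spread, so these values only describe which genes were high in the same libraries. Zfp36 stood at a mean of 381 CPM in ENZ-NONE and 44.1 CPM in the other 9, and Klf2, a Kruppel-like factor, at 542 and 57.7 CPM.

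To describe what else chemokine-positive cells contained, microglia-like cells with at least 1 UMI of Ccl3 or Ccl4 were summed per library and set against those with none, in pairs within each library. There were 227 positive and 9635 negative cells in the 6 inhibitor libraries (25 to 51 positive cells each) and 958 and 3290 in ENZ-NONE (226, 164 and 568 positive). Ccl3 and Ccl4, which define the classes, are left out of what follows. Fold changes are given relative to the median gene, because that median was -0.27 on the log2 scale in the inhibitor libraries, where the positive sums are small, and -0.00 in ENZ-NONE.

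In the inhibitor libraries edgeR called 184 of 9228 genes (1.99%), 56 higher (0.607%) and 128 lower (1.39%) in positive cells. With DESeq2 the numbers were 67 and 16, and with DESeq2 size factors in edgeR 79 and 21, so the balance of directions depended on the scaling. The 10 genes called lower with the largest change had at most 6 UMIs in all positive cells and are named here without a fold: Rev1, Plxna4, Lin9, Abhd15, Thoc6, Slc39a8, Wdr77, Pecam1, Tbrg1 and Etv1. The 10 called higher with the largest change were Egr2 (6.85), Egr3, Plk2 (6.14), Gdf15 (6.11), Egr1 (5.76), Gadd45b, Nes, Lgals3 (4.67), Ccl2 (4.38) and Lpl (4.30), as log2 fold change relative to the median gene. Egr3, Gadd45b and Nes had 6, 3 and 6 UMIs in all positive cells, so no fold is given. Gdf15 had 8 UMIs there, and the 15 UMIs of Plk2 lay in 5 cells. Ccl2 was at 221 ± 309 CPM in positive cells and ran from 0 to 794 CPM between libraries. Lgals3 and Lpl were found in only 14 and 18 of the 227 positive cells, and Lgals3 was at 170 ± 194 CPM there. The 10 genes include early response factors (Egr1, Egr2, Egr3), stress-induced genes (Gdf15, Gadd45b, Plk2) and genes of the disease-associated-like state (Lgals3, Lpl).

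Further calls in positive cells were of the activation antigen Cd83, the urokinase receptor Plaur, the growth factor Csf1 and the stress factor Atf3 (relative values 2.71, 3.54, 3.47 and 3.33). Cd83 was at 1125 ± 466 CPM in positive and 184 ± 41.7 CPM in negative cells of the inhibitor libraries (SD, n = 6; 404 UMIs in positive cells), and 44.1% against 19.5% of cells held it. It was called at 2.71 relative to the median (edgeR adjusted p 4.22e-97) and was higher in positive cells in 6 of 6 libraries. Plaur was at 196 ± 108 against 17.2 ± 2.90 CPM (3.54, adjusted p 1.05e-26, edgeR; 6 of 6 libraries). Egr1 had only 15 UMIs in positive cells and 10 in negative cells, in 3.96% and 0.104% of cells (44.8 ± 28.5 against 0.798 ± 0.555 CPM; 5.76, edgeR adjusted p 8.25e-12; 6 of 6 libraries). Fos was rare in both classes, with 2 UMIs in the positive cells and 11 in the negative ones, found in 0.881% and 0.083% of cells. Its value of 2.82 relative to the median was not called (edgeR adjusted p 0.346). Nearly all cells of either class in the inhibitor libraries were without a Fos UMI.

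In ENZ-NONE 46 genes were called (0.498%), 44 higher (0.477%) and 2 lower (0.0217%; Tia1 and Smg6). The largest changes, relative to the median gene, were in Mmp12, Egr3 (3.68), Lgals3 (3.43), Ccl7 (3.19), Lpl (3.05), Spp1 (2.97), Axl (2.81), Egr2 (2.21), Nr4a1 (1.98) and Il1b (1.91). Mmp12 rested on 6 UMIs against 0, so no fold is given, and Egr3 on 9 against 2, and each was called in 3 of 18 settings. Lgals3, Ccl7, Lpl, Spp1 and Axl were found in only 13, 11, 14, 10 and 15 of the 958 positive cells. Egr2, Nr4a1 and Il1b were found in 27, 19 and 32 of them. The phagocytic receptor Axl, the matrix protein Spp1 and Cst7 (1.76) were among 7 of 23 disease-associated-like genes called higher, beside 6 of 23 in the inhibitor libraries. The unshifted median log2 fold change of the list was 0.36 (all genes -0.00) and 0.51 (all genes -0.27). The immediate early genes were called as well: Fos (1.37), Egr1 (1.35), Junb (0.85) and Jun (0.81). Fos was found in 45.7% of chemokine-positive and 19.0% of chemokine-negative cells of ENZ-NONE, and Jun in 82.5% and 60.1%. These shares pool cells of 3 libraries, and replicate 6 gave 568 of 958 positive and 1087 of 3290 negative cells. Each gap therefore mixes differences within and between libraries. By library, Fos was at 761 to 2566 CPM in positive and 265 to 1155 CPM in negative cells. For Jun these were 2810 to 4209 and 1514 to 2698 CPM.

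By list, 9 of 21 activating factors and feedback inhibitors were called higher in positive cells of ENZ-NONE (unshifted median 0.63; all genes -0.00) and 3 of 21 in the inhibitor libraries (Atf3, Egr1 and Egr2; unshifted median 0.27, all genes -0.27). Other chemokine ligands called higher were Ccl2, Ccl7 and Ccl12 in ENZ-NONE (3 of 9 tested) and Ccl2, Ccl9, Ccl12 and Cxcl16 in the inhibitor libraries (4 of 9). The cytokines Il1b and Csf1 were called in both (2 of 6). Of the 3 receptors tested none was called in either, and Zfp36 was called in ENZ-NONE alone of the 3 mRNA decay factors. Among 12 homeostatic genes, P2ry12, Tmem119 and Sall1 were called lower in the inhibitor libraries. Relative to the median gene these were -0.36, -0.52 and -0.45, inside the limit of 0.58, and of all 128 genes called lower 75 lay beyond it. None of the 12 was called in ENZ-NONE, where Tmem119 stood at 3882 ± 519 and 4108 ± 312 CPM in positive and negative cells.

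The difference between the 2 settings was tested as an interaction, which called 52 genes (0.564%). Of these, 11 (0.119%) had a lower fold of positive over negative cells in ENZ-NONE than in the inhibitor libraries: Plk2, Egr2, Egr1, Ccl2, Plaur, Sdc4, Nab2, Cd83, Plpp1, C3ar1 and C5ar1. For Egr1 the interaction was -4.41 relative to the median (edgeR adjusted p 2.71e-06), and the level in chemokine-negative cells was 66.1 ± 26.4 CPM in ENZ-NONE (SD, n = 3) against 0.798 CPM in the inhibitor libraries. For Cd83 it was -1.76 (edgeR adjusted p 1.11e-18), with similar levels in the negative cells (198 ± 45.9 and 184 ± 41.7 CPM) and 378 ± 85.6 against 1125 ± 466 CPM in the positive ones. The other 41 genes (0.444%) had the higher fold in ENZ-NONE. Of these, 29 had been called lower in positive cells of the inhibitor libraries, 3 had been called higher in ENZ-NONE and 9 had been called in neither, and 27 had an interaction beyond 0.58 relative to the median gene. The 10 with the largest interaction were Wdr77, Etv1, Pdzd11, Ube2d1, 3222401L13Rik, Clasp2, Rab11fip2, Surf1, Pak1 and Il4ra, which had 3 to 23 UMIs in all positive cells of the inhibitor libraries. With DESeq2 size factors in edgeR the interaction called 7 genes in that direction and 24 in the other.

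**Figure D5:**
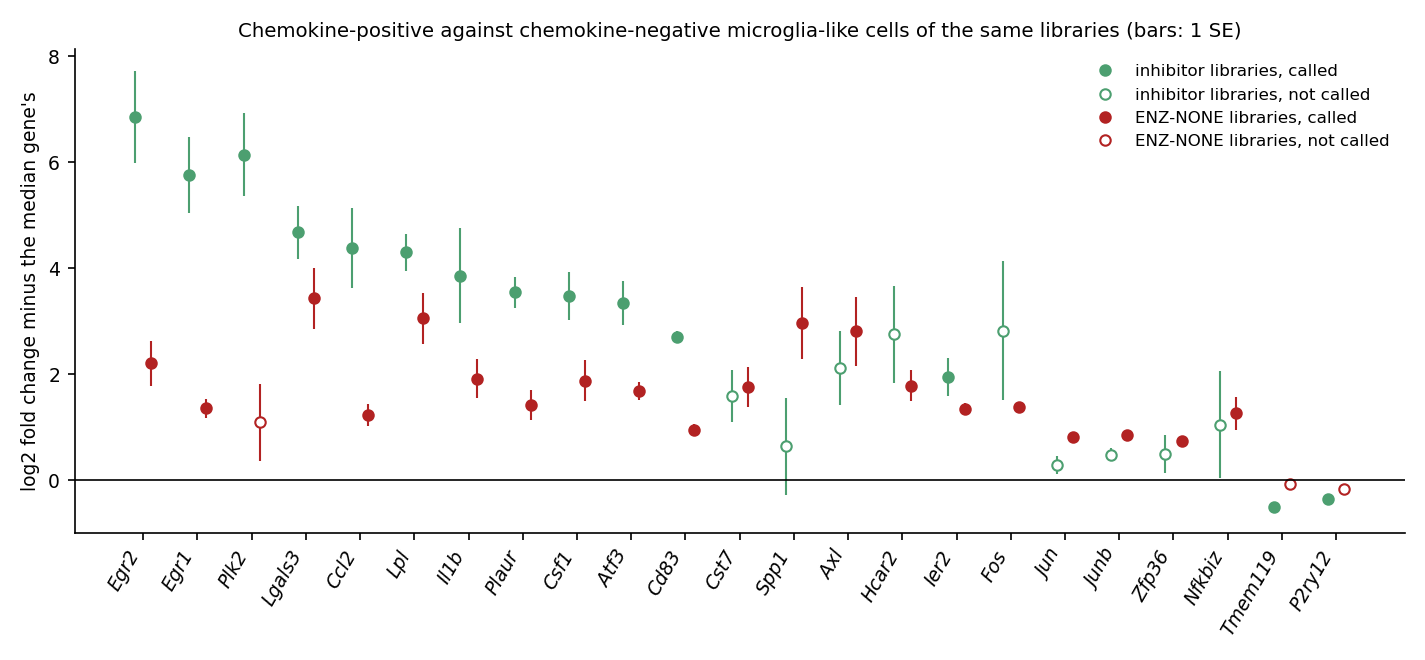
Log2 fold change, relative to the median gene, between chemokine-positive and chemokine-negative microglia-like cells of the same libraries, for genes of the lists and rules above; points are the 6 inhibitor libraries and the 3 ENZ-NONE libraries, bars are 1 SE, and filled points passed the test. Egr1, Egr2, Plaur and Cd83 lie higher in the inhibitor libraries (5.76, 6.85, 3.54 and 2.71) than in ENZ-NONE (1.35, 2.21, 1.42 and 0.95).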

How the data were processed

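The authors deposited UMI counts per gene and barcode, 1 matrix per animal, made with Cell Ranger 3.0.0 on mm10 (GRCm38), unnormalized and before their cell filters. Kept cells had at least 500 genes and 1000 UMIs and at most 10% mitochondrial UMIs. A marker rule removed 5 of 18830 cells (0.0266%), far below any working doublet rate, so doublets remain. PCR copies are collapsed, so intervals cover counting error only. Deposited totals were 2118143 to 3654465 UMIs per library.

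Counts were summed per library and tested with edgeR 4.0.16 (quasi-likelihood, all 4 groups in one fit, TMM, low-count filter). DESeq2 1.42.0 was an alternative. Shares of cells were compared by exact two-sided permutation over libraries (scipy 1.17.1). Thinning took the expected share at 1000 UMIs. Leiden clusters (leidenalg 0.10.2, resolution 1, 20 neighbours, 30 components, 2000 variable genes) were named from marker lists. Named genes were Ccl3, Ccl4, list members called in any pair, Ccr1, Fos, Nfkbia, Tnf, Il1b, Lpl and Cst7, the 5 genes most alike to each chemokine, and the 10 largest calls per direction between chemokine classes; class genes named beyond these were chosen after their values were seen, and 1 gene of this rule is not reported here. The 2 genes and the lists were chosen with earlier results of these data known. Tests were tried on simulated counts. Replicate numbers of ENZ-NONE and DNC-INHIB, and of ENZ-INHIB and DNC-NONE, coincide, but the labels tie them to no shared day or animal.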

Additional observations from a re-analysis of the deposited data

Results flagged for a closer look

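The gain in chemokine share of Lpl- or Cst7-positive over negative microglia-like cells was larger in ENZ-NONE in percentage points, by a test that passed on all UMIs but neither within batch nor after thinning. For Ccl3 it was 17.3 points in ENZ-NONE and 7.22 points elsewhere, 10.1 points apart (exact permutation p 0.0455, within batch 0.0667, thinned to 1000 UMIs 0.0727). For Ccl4 it was 16.97 and 7.43 points, a difference of 9.54 points (exact permutation p 0.0455, within batch 0.0889, thinned 0.0636). For cells with both genes the difference was 8.64 points (exact permutation p 0.0818). As a ratio of the mean shares the order turned: positive over negative cells stood at 2.32 for Ccl3 and 2.28 for Ccl4 in ENZ-NONE and at 5.86 and 7.57 elsewhere, which was not tested. ENZ-NONE replicate 4 lay inside the range of the other 9 libraries for both genes, with a gain of 7.99 points for Ccl3 and 8.66 for Ccl4.

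The contrast between chemokine-positive and chemokine-negative microglia-like cells differed between ENZ-NONE and the inhibitor libraries for 52 genes by the edgeR interaction test and for 13 genes by DESeq2.

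Barcodes left out by the cell filter hold medians of 459 to 854 UMIs and otherwise enter only the alternatives on all deposited barcodes. Those left-out barcodes also held more chemokine in ENZ-NONE. Ccl3 was found in 6.83%, 6.07% and 15.4% of them against 0% to 2.41% elsewhere (means 8.25 points apart), and Ccl4 in 6.97%, 6.63% and 17.4% against 0.357% to 1.28% (9.61 points apart) (exact permutation p 0.00909 each, the smallest possible).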

How the results depend on the processing

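The comparison of shares between ENZ-NONE and the other 9 libraries kept its direction and side of the threshold in all 21 alternatives for each of Ccl3, Ccl4 and both. Without 1 library at a time the differences were 8.74 to 14.0, 7.56 to 15.4 and 3.31 to 6.79 points (exact permutation p 0.0121 to 0.0364). The Fos differences ran from 7.71 to 12.4, 8.28 to 14.4 and 4.18 to 7.91 points, and with 3 libraries no p below 0.25 is possible. The Lpl or Cst7 differences ran from 8.43 to 10.7, 8.66 to 10.3 and 5.28 to 7.29 points; with the class at 2 UMIs they were 20.8, 22.2 and 13.8 points over 4 libraries, where the smallest exact p is 0.125.

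The edgeR call of Ccl3 against DNC-NONE was lost in microglia-like cells only (3.09, adjusted p 0.0587). Without single libraries its log2 fold change ran from 2.52 to 3.43, and the call was lost in 9 of 12 cases, each that left out a library of another group than ENZ-NONE. Against DNC-INHIB it ran from 3.14 to 4.04, with the call lost without each DNC-INHIB library (adjusted p 0.0647, 0.0671 and 0.0744), and it was also lost with only these groups fitted, an alternative added after seeing the data (3.78, adjusted p 0.146). Against ENZ-INHIB it ran from 3.54 to 4.56, with the call lost without each ENZ-INHIB library (adjusted p 0.0656, 0.135 and 0.152). Ccl4 ran from 2.43 to 3.89, 2.20 to 3.56 and 3.00 to 4.37 in the same comparisons. DESeq2 gave 3.53, 3.19 and 4.03 and called each, and with batch as a covariate edgeR called Ccl4 against DNC-INHIB (3.29, adjusted p 0.0471). DNC-NONE minus DNC-INHIB for Ccl4 changed sign with batch as a covariate (0.0600) and without DNC-INHIB replicate 5 (0.0227), and over single libraries left out it ran from -0.68 to 0.02, with no call. The cause of these changes was not tested, beyond the smaller number of libraries in the fits that leave some out.

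With the replicate number as a block, same-numbered libraries deviated together only weakly (correlations 0.11, -0.01 and 0.16 for ENZ-NONE and DNC-INHIB, and -0.08, -0.05 and 0.01 for ENZ-INHIB and DNC-NONE), so the numbers were not taken to pair the libraries. In that block fit Ccl3 in ENZ-NONE against DNC-INHIB was 3.71 and was not called (edgeR adjusted p 0.211). Ccl3 in ENZ-INHIB against DNC-NONE was -0.91 and was called (edgeR adjusted p 0.00691). The block fits called 104 genes for the one pair (73 without) and 90 for the other (18 without).

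Calls between chemokine classes moved with the settings. For the inhibitor libraries, ENZ-NONE and their interaction, DESeq2 gave 83, 24 and 13 genes (67 higher and 16 lower, 24 and 0, 4 and 9). DESeq2 size factors in edgeR gave 100 for the inhibitor libraries and 31 for the interaction, and a class of at least 2 chemokine UMIs gave 646 and 310. Leaving out single libraries gave 109 to 182, 26 to 43 and 18 to 56. Without a low-count filter the pairs called 103, 142, 60, 19, 67 and 108 genes, the first 3 for ENZ-NONE against the other groups, then for DNC-NONE minus DNC-INHIB, ENZ-INHIB minus DNC-INHIB and ENZ-INHIB minus DNC-NONE.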
